A study of Homo sapiens with 6 samples.

Results

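In all, 40 genes of cholesterol and fatty acid synthesis were examined in DU145 cells, a human cell line from metastatic prostate cancer. They were matched by symbol to the deposited gene table, which held all 40 of them among its 27381 genes. By role they fall into 5 branches, with 7 genes of the mevalonate pathway, 12 of sterol synthesis, 7 of sterol uptake and regulation, 5 of sterol efflux and 9 of fatty acid synthesis. RNA was sequenced from 6 libraries, 2 for each of 3 labels. Scr marks cells given Cas9 with a scrambled sgRNA without a target, CD24 KO marks cells edited by CRISPR/Cas9 in CD24, a glycosylated surface protein, and RCC2 KO marks cells edited in RCC2, a regulator of chromosome condensation. All of the cells went through Cas9 transfection and sorting for GFP. The study describes clones for the knockouts and for the scrambled control, so that a clone and its label come together. The authors deposited 1 value per gene and label, in FPKM, fragment numbers corrected for the length of the transcript and for how many fragments were mapped. The RCC2 KO column carries the name of the first RCC2 KO library, which is also the stem of the second, and may hold 1 library or both. No spread between libraries, standard error or p-value can therefore be given, and no difference described here has a replicate check.

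Cholesterol is built from acetyl-CoA through mevalonate to farnesyl diphosphate, then through squalene and lanosterol to the finished sterol. Fatty acids are built from the same acetyl-CoA by carboxylation, chain assembly, desaturation and elongation. Both routes are governed by the SREBP transcription factors, which are carried from the endoplasmic reticulum by SCAP when sterols are scarce and are held back by the INSIG proteins when sterols are plentiful. For cholesterol, the liver X receptors act in the other direction, raising efflux pumps when oxysterols accumulate. In prostate cancer these routes are known as a source of membrane lipid and of steroid precursors.

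The RNA of the targeted genes did not follow the labels. CD24 was at 93.2 FPKM under Scr, with 309 FPKM under the CD24 KO label and 214 FPKM under the RCC2 KO label. RCC2 was at 37.8, 14.2 and 41.8 FPKM in that order. Directions below are therefore stated for the libraries as labelled. An edit need not lower the RNA. The study describes checks of the edited lines by sequencing of the locus, protein blots and flow cytometry, but these do not show which library stands in which column. At the protein level it reports more RCC2 in CD24 KO cells and CD24 unaffected by RCC2 KO. CD24 was lowest in the column labelled Scr, and RCC2 in that labelled CD24 KO. Whether libraries were exchanged between labels, Scr included, was not tested. If they were, the values given for one label would belong to another, and the changes against Scr would be affected too. Of general cell type markers, 4 epithelial ones, KRT8, KRT18, EPCAM and CDH1, were each at 23.7 FPKM or more in every column. They do not tell prostate cells from other epithelial cells, so the prostate label itself was not checked. None of 4 leukocyte and 5 fibroblast and endothelial markers reached 1 FPKM in any column. PTPRC and CD3E, defining markers of leukocytes and T cells, were listed at 0 throughout. KRT8 was at 336, 149 and 348 FPKM under Scr, CD24 KO and RCC2 KO, and KRT18 at 293, 141 and 305 FPKM, so both keratins were lowest in the CD24 KO column. CDH1, which encodes E-cadherin, was highest there, at 27.9, 52.6 and 23.7 FPKM, and EPCAM was at 58.9, 44.9 and 58.6 FPKM. The 4 markers thus did not move one way, and their part in the results below was not tested. The columns summed to between 388764 and 451272 FPKM, the lowest for CD24 KO, where the mitochondrial ribosomal RNA RNR2 was listed at 0. The depth of the libraries is unknown, since the table holds no counts.

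In the Scr column the genes covered a wide range of levels. SCD, the stearoyl-CoA desaturase, was the most abundant at 208 FPKM, above 98.0% of the genes compared. ELOVL5, a fatty acid elongase, followed at 183 FPKM, FDPS, the farnesyl diphosphate synthase, at 174 FPKM, ACLY, which makes cytosolic acetyl-CoA from citrate, at 136 FPKM and FDFT1, the squalene synthase, at 128 FPKM. At the other end the efflux pumps ABCG1 and ABCA1 were at 0.914 and 0.722 FPKM. Whether neighbors in this order differ beyond the spread of libraries cannot be told. Summed over the 40 genes, the level was 1869.9 FPKM under Scr, with 2941 FPKM under CD24 KO and 1388 FPKM under RCC2 KO. The CD24 KO sum was 1.57 times the Scr sum and the RCC2 KO sum was 0.742 times it. In bulk RNA, fewer cells that express a gene and less of its RNA per cell cannot be told apart.

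**Figure D1:**
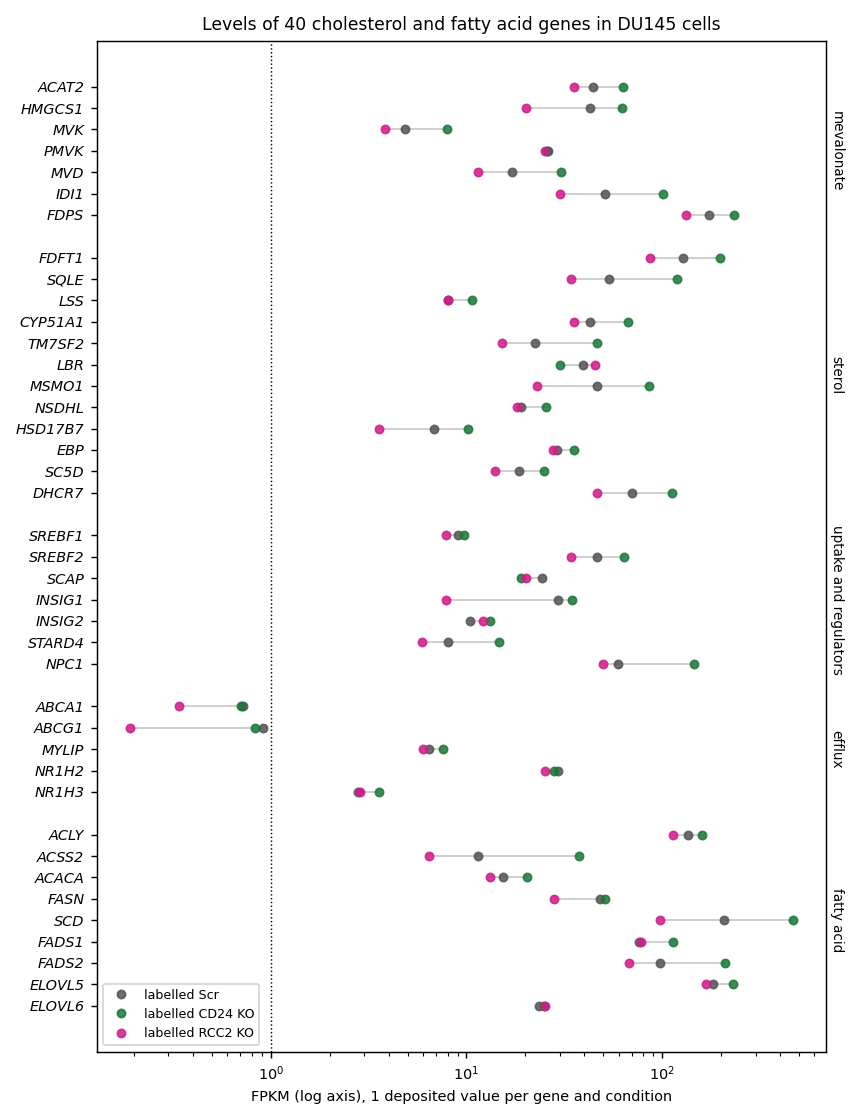
FPKM on a log axis for the 40 genes, grouped by branch, with 1 point for each deposited column (Scr grey, CD24 KO green, RCC2 KO magenta) and a dotted line at 1 FPKM. The CD24 KO points lie highest for most genes, SCD reaches 466 FPKM, and ABCA1 and ABCG1 lie below the line in all columns.

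Genes with at least 1 FPKM in at least 1 column were compared, 12822 in all, of which 38 were members. ABCA1 and ABCG1 did not pass. Changes are differences of log2(FPKM + 1), a scale that understates the change of low genes, and a gene was counted when it differed at least 1.5-fold on it. In the column labelled CD24 KO, 14 of the 38 members were at least 1.5-fold higher than in Scr and 0 were at least 1.5-fold lower, while over all genes compared 9.55% were higher and 11.6% lower. The median log2 change of the members was 0.44, beside -0.034 over all genes. In the column labelled RCC2 KO, 0 members were at least 1.5-fold higher and 9 were at least 1.5-fold lower than in Scr, while 1.45% of all genes were higher and 3.82% lower. Their median log2 change was -0.29, beside -0.0036 over all genes. The members were chosen with earlier results of these data known, so the shares of all genes, here and below, are a description and no test. Both comparisons use the same Scr column, so they are given side by side, and the opposite signs of their medians were not tested.

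At the stricter minimum of 2-fold, 6 members were higher in the column labelled CD24 KO, and 0 were lower, where 2.67% of all genes were higher and 3.03% lower. The 6 were ACSS2, NPC1, SCD, SQLE, FADS2 and TM7SF2, and thus came from the fatty acid, sterol and uptake branches. In that labelled RCC2 KO, 3 members were at least 2-fold lower, INSIG1, SCD and HMGCS1, and 0 were higher, where 0.796% of all genes were lower and 0.406% higher. Read as hg19, the table places INSIG1 at chr7:155089482-155101945, SCD at chr10:102106772-102124588, HMGCS1 at chr5:43287572-43313614 and ACSS2 at chr20:33462766-33515769. By level, 33 of the 38 members were highest in the CD24 KO column, against 39.7% of all genes compared. The RCC2 KO column was the lowest for 31 of the 38 members, against 33.2% of all genes.

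**Figure D2:**
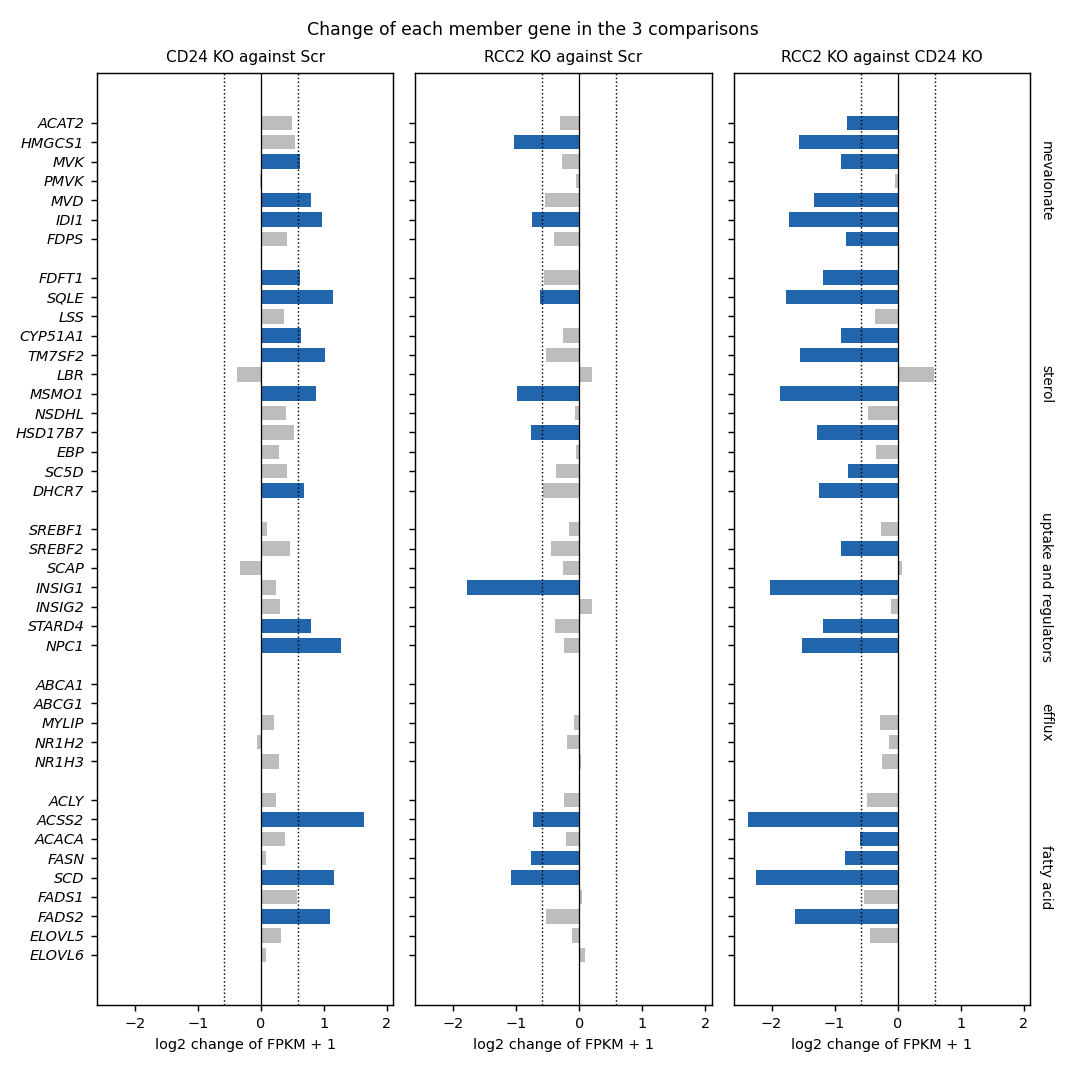
Log2 change of FPKM + 1 for each gene in 3 panels, CD24 KO against Scr, RCC2 KO against Scr and RCC2 KO against CD24 KO, with blue bars at or past 1.5-fold (dotted lines) and grey bars short of it. The bars run from -0.38 to 1.63 in the first panel, from -1.77 to 0.20 in the second and from -2.37 to 0.58 in the third, and ABCA1 and ABCG1 have none.

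The mevalonate branch makes the isoprenoid units that sterols are assembled from. Its 7 genes had a median log2 change of 0.53 in the column labelled CD24 KO, with 3 of them at least 1.5-fold higher. In that labelled RCC2 KO it was -0.39, with 2 at least 1.5-fold lower. Of all genes compared, 9.55% were higher in CD24 KO and 3.82% lower in RCC2 KO at that minimum. IDI1, which isomerizes isopentenyl diphosphate, was at 51.2 FPKM under Scr, with 101 FPKM under CD24 KO and 29.9 FPKM under RCC2 KO. Its log2 changes of 0.97 and -0.76 against Scr passed 1.5-fold in both comparisons. HMGCS1, which condenses acetyl-CoA units to HMG-CoA, was at 42.5, 62.0 and 20.3 FPKM in the same order. Its log2 change in CD24 KO, 0.53, fell short of 1.5-fold and that in RCC2 KO, -1.03, passed 2-fold. MVD, the mevalonate diphosphate decarboxylase, was at 17.2, 30.3 and 11.5 FPKM, a log2 change of 0.79 in CD24 KO and of -0.54 in RCC2 KO. MVK, the mevalonate kinase and the least abundant of the branch, was at 4.83, 7.99 and 3.82 FPKM, with log2 changes of 0.62 and -0.27. The first passed 1.5-fold and the second did not.

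ACAT2, a cytosolic thiolase that supplies acetoacetyl-CoA, and FDPS did not reach 1.5-fold against Scr. ACAT2 was at 44.5, 62.7 and 35.6 FPKM. FDPS was at 174, 233 and 132 FPKM, and GENCODE names 8 pseudogenes of it, between which fragments could have been divided. It names 3 for CYP51A1, 2 for HSD17B7 and 1 each for SCD and FADS2, and the same limit holds for these genes. PMVK, the phosphomevalonate kinase that acts between MVK and MVD, stood apart from its branch at 26.1, 25.9 and 25.2 FPKM, with log2 changes of -0.012 and -0.053. Steps on both sides of it in the same chain thus had larger differences than PMVK itself.

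The sterol branch leads from squalene to cholesterol. Its 12 genes had a median log2 change of 0.57 in the column labelled CD24 KO, where 6 were at least 1.5-fold higher. In that labelled RCC2 KO it was -0.45, and 3 were at least 1.5-fold lower. The shares of all genes were again 9.55% and 3.82%. SQLE, the squalene epoxidase and a known control point of the pathway, was at 53.3 FPKM under Scr, with 118 FPKM under CD24 KO and 34.2 FPKM under RCC2 KO. Its log2 changes were 1.14 and -0.63. MSMO1, the methylsterol monooxygenase, was at 46.6, 85.9 and 22.9 FPKM, with log2 changes of 0.87 and -0.99. Both genes passed 1.5-fold in each comparison with Scr. TM7SF2, a sterol reductase of the endoplasmic reticulum, was at 22.4, 46.3 and 15.1 FPKM, a log2 change of 1.02 in CD24 KO and of -0.53 in RCC2 KO. HSD17B7, a ketosteroid reductase, was at 6.79, 10.2 and 3.59 FPKM, with log2 changes of 0.52 and -0.76, of which the second passed 1.5-fold.

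FDFT1, CYP51A1 and DHCR7 passed 1.5-fold in CD24 KO but not in RCC2 KO, and whether the differences from Scr are unequal in size was not tested. FDFT1, at the branch point to sterols, was at 128, 198 and 86.7 FPKM. CYP51A1, the lanosterol demethylase, was at 42.7, 67.0 and 35.5 FPKM, and DHCR7, the reductase of the last step to cholesterol in one arm of the pathway, was at 69.7, 112 and 46.5 FPKM. Their log2 changes in CD24 KO were 0.62, 0.64 and 0.68, and in RCC2 KO they were -0.56, -0.26 and -0.57.

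LSS, which closes the rings to lanosterol, and the later enzymes NSDHL, EBP and SC5D did not reach 1.5-fold against Scr. Their log2 changes lay between 0.28 and 0.41 in CD24 KO and between -0.37 and 0.0038 in RCC2 KO. SC5D, the sterol desaturase, was at 18.5, 25.0 and 14.1 FPKM, and its log2 difference between the knockouts, -0.79, passed 1.5-fold. LSS was at 8.04, 10.7 and 8.06 FPKM, NSDHL, a decarboxylating dehydrogenase, at 19.1, 25.4 and 18.0 FPKM and EBP, a sterol isomerase, at 28.9, 35.3 and 27.7 FPKM, so that Scr and RCC2 KO lay close together for all 3. LBR, the lamin B receptor, a protein of the inner nuclear membrane that carries sterol reductase activity like that of TM7SF2, had the opposite signs. It was at 39.3 FPKM under Scr, with 30.0 FPKM under CD24 KO and 45.3 FPKM under RCC2 KO. Its log2 changes were -0.38 and 0.20, neither past 1.5-fold. TM7SF2 and LBR, which serve the same step, thus had their highest values in different columns.

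Among the 7 genes of uptake and regulation, 2 were at least 1.5-fold higher in the column labelled CD24 KO, with a median of 0.31. In that labelled RCC2 KO, 1 was at least 1.5-fold lower, with a median of -0.26. The shares of all genes were 9.55% and 3.82%, and these counts are small. INSIG1, a retention factor of the SREBPs that is itself a classical SREBP target, was at 29.2 FPKM under Scr, with 34.7 FPKM under CD24 KO and 7.83 FPKM under RCC2 KO. The RCC2 KO value was 0.268 times that of Scr, the lowest ratio of any member compared, and its log2 change was -1.77. In CD24 KO the log2 change of INSIG1 was 0.24 and did not reach 1.5-fold. INSIG2, its paralog, was at 10.4, 13.2 and 12.2 FPKM, with log2 changes of 0.31 and 0.20.

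NPC1, which exports cholesterol from lysosomes, was at 59.5 FPKM under Scr, with 145 FPKM under CD24 KO and 50.1 FPKM under RCC2 KO. In CD24 KO its log2 change of 1.27 was second among the members to that of ACSS2. STARD4, a cytosolic sterol carrier, was at 8.04, 14.7 and 5.92 FPKM, with log2 changes of 0.80 and -0.38. Of the transcription factors, SREBF2, which encodes the SREBP that chiefly drives sterol genes, was at 46.6, 64.1 and 34.0 FPKM, with log2 changes of 0.45 and -0.44. SREBF1, which encodes the SREBPs that chiefly drive fatty acid genes, was at 9.02, 9.67 and 7.90 FPKM, with log2 changes of 0.091 and -0.17. SCAP, the escort of the SREBPs, was lower than in Scr in both, at 24.2, 19.1 and 20.1 FPKM. None of these 3 regulators passed 1.5-fold against Scr. Between the knockouts SREBF2 did, with a log2 difference of -0.90 for RCC2 KO against CD24 KO. RNA does not measure the cleavage that activates the SREBP proteins.

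The efflux genes were low or differed little. ABCA1, which loads cholesterol onto apolipoproteins, was at 0.722 FPKM under Scr, with 0.708 FPKM under CD24 KO and 0.341 FPKM under RCC2 KO. ABCG1, which passes cholesterol to mature lipoproteins, was at 0.914, 0.833 and 0.191 FPKM. Both pumps had their lowest value in the RCC2 KO column, but at such levels a few fragments can set a value, and neither was compared. MYLIP, a ubiquitin ligase that degrades lipoprotein receptors and is a target of the liver X receptors, was at 6.43, 7.55 and 6.01 FPKM. The receptors themselves, NR1H2 at 29.3, 28.1 and 25.3 FPKM and NR1H3 at 2.79, 3.59 and 2.86 FPKM, stayed within 1.5-fold as well. The median log2 change of the 3 efflux genes compared was 0.20 in CD24 KO and -0.083 in RCC2 KO, and with the 2 pumps included it was -0.011 in CD24 KO and -0.20 in RCC2 KO.

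The fatty acid branch held both the largest log2 change above Scr and the largest difference between the knockouts, those of ACSS2. Of its 9 genes, 3 were at least 2-fold higher in the column labelled CD24 KO, against 2.67% of all genes. In that labelled RCC2 KO, 3 were at least 1.5-fold lower, against 3.82% of all genes. The branch medians were 0.39 and -0.25. ACSS2, which makes acetyl-CoA from acetate, was at 11.5 FPKM under Scr, with 37.5 FPKM under CD24 KO and 6.47 FPKM under RCC2 KO, and its log2 change of 1.63 in CD24 KO was the highest of all members. In RCC2 KO its log2 change was -0.74. SCD, which puts the first double bond into saturated fatty acids, was at 208, 466 and 97.9 FPKM. Its log2 changes were 1.16 and -1.08, and it was the only member past 2-fold against Scr in both comparisons. FADS2, the desaturase that starts the synthesis of polyunsaturated fatty acids, was at 97.4, 210.2 and 67.5 FPKM, with log2 changes of 1.10 and -0.52.

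FASN, the fatty acid synthase, was at 48.4 FPKM under Scr, with 51.0 FPKM under CD24 KO and 28.2 FPKM under RCC2 KO. It thus differed by a log2 change of 0.076 in CD24 KO and of -0.76 in RCC2 KO, so that only the second passed 1.5-fold. ACLY was at 136, 161 and 114 FPKM and ACACA, which makes malonyl-CoA, at 15.4, 20.4 and 13.2 FPKM, all within 1.5-fold of Scr. FADS1, the partner desaturase of FADS2, was at 76.2, 113 and 78.2 FPKM, with log2 changes of 0.57 and 0.037. The table gives FADS1 and FADS2 a single position, chr11:61567097-61634826 (hg19), and fragments at their shared stretch could have been divided between them. The elongases ELOVL5 and ELOVL6 did not reach 1.5-fold, with ELOVL5 at 183, 229 and 168 FPKM and ELOVL6 at 23.5, 24.8 and 25.2 FPKM in the 3 columns.

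The column labelled RCC2 KO was also compared directly with that labelled CD24 KO. With 1 value per column, each difference follows from the changes against Scr already given. It is that in RCC2 KO minus that in CD24 KO, and is no separate support for them. Of the 38 members, 23 were at least 1.5-fold lower in RCC2 KO and 0 were at least 1.5-fold higher, where 14.1% of all genes were lower and 13.8% higher. At 2-fold, 15 members were lower and 0 higher, where 4.3% of all genes were lower and 4.02% higher. The median log2 difference of the members was -0.82, beside 0.017 over all genes. By branch it was -0.90 for mevalonate, -1.04 for sterol, -0.90 for uptake and regulators, -0.25 for the 3 efflux genes and -0.59 for fatty acid genes. ACSS2 had the largest difference, with a level in CD24 KO 5.80 times that in RCC2 KO and a log2 difference of -2.37. SCD followed at 4.76 times and -2.24, INSIG1 at 4.43 times and -2.02, and MSMO1 at 3.76 times and -1.86. The other 11 past 2-fold were SQLE, IDI1, FADS2, HMGCS1, TM7SF2, NPC1, MVD, HSD17B7, DHCR7, STARD4 and FDFT1, with log2 differences from -1.76 to -1.18. LBR had the highest value at the other end, with a log2 difference of 0.58 that fell just short of 1.5-fold, and PMVK, SCAP and ELOVL6 lay between -0.041 and 0.073.

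Other lipid genes were taken from lists of 63 genes in all, and all of these were compared. Over all genes, as given above, 9.55% were at least 1.5-fold higher and 11.6% lower in CD24 KO, 1.45% higher and 3.82% lower in RCC2 KO, and 14.1% lower in RCC2 KO than in CD24 KO. For the 12 genes of the non-sterol isoprenoid branch, which use farnesyl diphosphate for prenylated proteins, dolichol and coenzyme Q, the median log2 change was -0.31 in the column labelled CD24 KO and 0.016 in that labelled RCC2 KO. In CD24 KO 0 of them were at least 1.5-fold higher and 2 were lower, PGGT1B, a subunit of a prenyltransferase, at -0.59 and PDSS1, a subunit of the synthase of the coenzyme Q tail. At 2 of 12 genes this is near the share of all genes. PDSS1 was at 7.74 FPKM under Scr, with 2.29 FPKM under CD24 KO and 7.76 FPKM under RCC2 KO, a log2 change of -1.41 in CD24 KO. The 9 genes of SREBP processing and sterol-regulated degradation stayed within 1.5-fold of Scr in both, with medians of -0.069 and 0.075. The medians of this SREBP machinery thus lay nearer to 0 than those of the sterol branch.

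Sterol transport and esterification, with 11 genes, had a median of 0.32 for CD24 KO against Scr and of -0.15 for RCC2 KO, with 1 gene at least 1.5-fold higher and 1 lower in CD24 KO and 1 lower in RCC2 KO. These counts of 1 in 11 are near the shares of all genes in CD24 KO and are no result about the list. The higher gene was OSBPL2, an oxysterol-binding protein, at 6.91, 11.4 and 7.64 FPKM. The lower gene was in both cases GRAMD1B, which moves cholesterol from the plasma membrane to the endoplasmic reticulum, at 71.2, 45.4 and 40.3 FPKM. Among 20 further genes of fatty acid and glycerolipid synthesis the medians were 0.25 and -0.083, with 5 at least 1.5-fold higher in CD24 KO and 0 past that minimum in RCC2 KO. The 5 were the elongases ELOVL7 and ELOVL4, at log2 changes of 0.99 and 0.62, the acyl-CoA synthetases ACSL3 and ACSL4, at 0.71 and 0.60, and DGAT2, at 0.61. Between the knockouts 8 of these 20 genes were at least 1.5-fold lower in RCC2 KO. DGAT2, an acyltransferase that completes triglycerides, was at 9.03, 14.3 and 5.78 FPKM, and ACSL3, an acyl-CoA synthetase of lipid droplets, at 36.2, 59.9 and 27.7 FPKM. They had the largest differences of that list between the knockouts, at -1.17 and -1.09 on the log2 scale. The 11 genes of fatty acid oxidation had a median log2 change of -0.36 in CD24 KO, where 3 were at least 1.5-fold lower, and of -0.17 in RCC2 KO, where 0 were. CPT1A, which admits fatty acids to mitochondria, was at 13.3 FPKM under Scr, with 4.90 FPKM under CD24 KO and 12.6 FPKM under RCC2 KO, a log2 change of -1.27 in CD24 KO. The other two were the thiolase ACAA2 at -0.61 and the carnitine carrier SLC25A20 at -0.59. PGGT1B, OSBPL2, GRAMD1B, ELOVL7, ELOVL4, ACSL4, ACAA2 and SLC25A20 were named after their values had been seen.

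**Figure D3:**
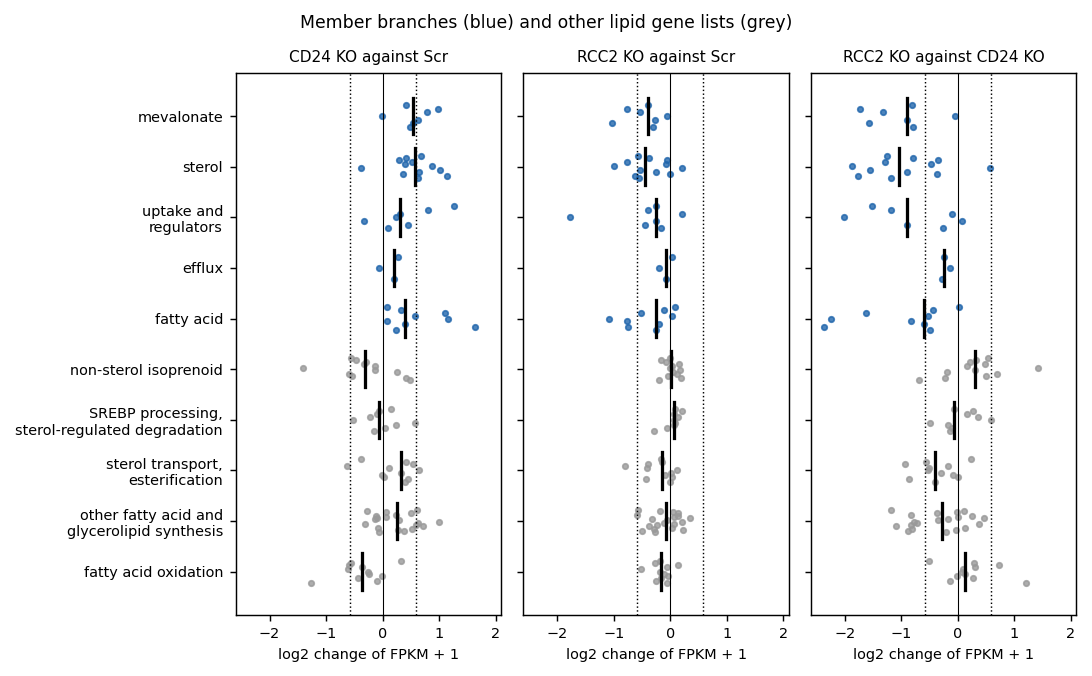
Log2 change of FPKM + 1 for every compared gene of the 5 member branches (blue points) and of 5 other lipid gene lists (grey points) in the 3 comparisons, with the median of each list as a black bar and dotted lines at 1.5-fold. In CD24 KO against Scr the medians run from 0.20 to 0.57 for the member branches and are -0.36 for fatty acid oxidation and -0.31 for non-sterol isoprenoid genes.

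The 250 bases before the start of each gene were searched for 4 motifs on both strands, because SREBPs are known to bind sterol regulatory elements next to sites of NF-Y and SP1. RefSeq windows on GRCh38.p14 were found for 35 of the 40 genes, and ACAT2, ABCG1, FDFT1, SQLE and FASN had none. CCAAT, the NF-Y site, was in 23 of the 35 genes, 65.7%, against 41.3% of the 9725 compared genes with a window and 37.0% of all 27305 genes with one. A core of the sterol regulatory element, TCACNCC, was in 10 genes, 28.6%, against 18.0% and 15.5%. GGGCGG, the GC box, was in 32 genes, 91.4%, against 76.0% and 46.2%, and CACGTG, an E-box, in 5 genes, 14.3%, against 11.3% and 7.73%. By branch, CCAAT was in 5 of 6 mevalonate genes, 8 of 10 sterol genes, 3 of 7 genes of uptake and regulation, 2 of 4 efflux genes and 5 of 8 fatty acid genes. A gene with several starts was counted when any of its windows held the motif. A match is a stretch of letters and not a shown binding site, and none of these files measures binding.

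**Figure D4:**
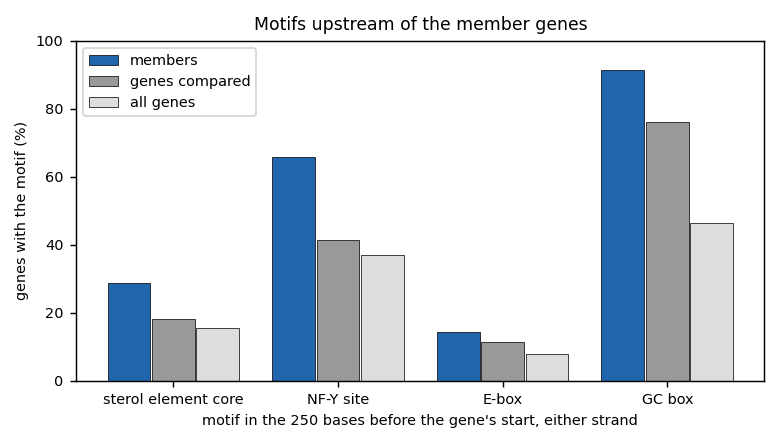
Share of genes (in percent) with each of 4 motifs in the 250 bases before their start, for the 35 members with a window (blue), the 9725 compared genes with a window (dark grey) and all 27305 genes with a window (light grey). The NF-Y site is in 65.7% of members against 41.3% of compared genes, and the E-box differs least, with 14.3% against 11.3%.

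Windows of 6 genes are shown to set genes with large differences between the columns beside PMVK and LBR, which differed little or the other way. All are written 5′ to 3′ on the strand of the gene, end at the base before its start, and carry the matches to the 4 motifs, in either orientation, in capitals. They lie at chr4:165327419-165327668 on the plus strand for MSMO1, chr16:88663092-88663341 on the minus strand for MVD, chr10:100346983-100347232 on the plus strand for SCD, chr7:155297628-155297877 on the plus strand for INSIG1, chr1:154936720-154936969 on the minus strand for PMVK and chr1:225428822-225429071 on the minus strand for LBR.
MSMO1: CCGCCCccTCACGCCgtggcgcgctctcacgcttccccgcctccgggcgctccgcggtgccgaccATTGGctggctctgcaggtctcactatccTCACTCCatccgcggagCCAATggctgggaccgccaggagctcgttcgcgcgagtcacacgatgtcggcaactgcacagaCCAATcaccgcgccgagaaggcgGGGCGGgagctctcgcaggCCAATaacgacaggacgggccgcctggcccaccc
MVD: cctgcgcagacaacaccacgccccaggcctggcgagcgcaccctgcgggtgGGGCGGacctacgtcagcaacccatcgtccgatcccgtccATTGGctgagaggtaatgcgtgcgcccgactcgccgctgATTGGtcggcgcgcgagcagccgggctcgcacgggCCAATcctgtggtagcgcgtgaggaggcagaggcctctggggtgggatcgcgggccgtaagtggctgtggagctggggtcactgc
SCD: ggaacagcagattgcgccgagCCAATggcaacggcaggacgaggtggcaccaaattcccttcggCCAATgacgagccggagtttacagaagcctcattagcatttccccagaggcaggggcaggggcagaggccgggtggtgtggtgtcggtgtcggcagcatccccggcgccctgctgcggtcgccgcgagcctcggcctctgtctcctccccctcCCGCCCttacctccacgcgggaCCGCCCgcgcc
INSIG1: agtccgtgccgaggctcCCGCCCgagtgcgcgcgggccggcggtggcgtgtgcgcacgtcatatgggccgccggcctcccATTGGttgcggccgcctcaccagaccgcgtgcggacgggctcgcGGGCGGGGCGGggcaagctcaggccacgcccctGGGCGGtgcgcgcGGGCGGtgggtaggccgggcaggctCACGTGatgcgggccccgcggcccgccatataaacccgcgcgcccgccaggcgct
PMVK: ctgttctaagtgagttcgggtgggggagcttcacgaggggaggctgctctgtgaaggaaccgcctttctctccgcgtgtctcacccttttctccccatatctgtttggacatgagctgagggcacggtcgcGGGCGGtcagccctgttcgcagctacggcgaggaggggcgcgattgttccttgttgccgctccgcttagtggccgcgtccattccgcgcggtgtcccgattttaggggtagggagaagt
LBR: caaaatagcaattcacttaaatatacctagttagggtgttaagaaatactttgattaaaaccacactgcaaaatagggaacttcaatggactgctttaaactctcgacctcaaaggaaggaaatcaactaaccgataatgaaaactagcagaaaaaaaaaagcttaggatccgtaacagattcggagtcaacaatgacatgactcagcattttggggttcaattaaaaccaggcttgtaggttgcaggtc
The MSMO1 window held CCAAT 4 times and TCACNCC 2 times, and MVD held CCAAT 3 times without TCACNCC. SCD held CCAAT 2 times and GGGCGG 2 times. INSIG1 held GGGCGG 5 times, 2 of them overlapping, with 1 CCAAT and 1 CACGTG. The PMVK window held a single GGGCGG and the LBR window none of the 4 motifs. These 6 genes were picked with their values known, so the contrast between their windows is a description of these genes only. Other members went against it. NPC1, FADS2 and CYP51A1, all past 1.5-fold in CD24 KO, held neither CCAAT nor TCACNCC. NSDHL and EBP, which stayed within 1.5-fold of Scr, held CCAAT 5 and 3 times, and NSDHL also held TCACNCC.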

How the data were processed

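RNA from 6 libraries of DU145 cells was measured, 2 for each of the Scr, CD24 KO and RCC2 KO labels. A gene table was deposited by the authors with FPKM values, 1 column per condition. HISAT, StringTie, Cufflinks and GATK are named in the submitters' processing notes, without version or role, and the aligner settings, genome build and annotation are not given in the sources used here. The labels name an Illumina RNA kit for total RNA, and the study's methods a stranded mRNA kit with paired-end sequencing. Of 24864 unique GENCODE 29 symbols, 15.8% lay at their GRCh38 position, so positions were read as hg19, with starts counted from 1. Among 1615 genes above 0 and under 0.3 FPKM in every column, 2.41% shared the most frequent ratio between RCC2 KO and Scr, so no depth or fragment counts were recovered.

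The member genes and lists were chosen with earlier results of these data known. Genes with at least 1 FPKM in at least 1 column were compared as log2(FPKM + 1), with minimums of 1.5-fold and 2-fold. All members could be named, with full values for those past 1.5-fold in any comparison, and genes of the other lipid lists when past 2-fold. A fit across libraries (limma), planned for separate libraries, could not be run on 1 value per condition. The calculation was tested on simulated data, with changes well past the minimum, little noise and no low genes among those changed. That test does not cover small changes, low genes or the spread of real libraries. Motifs were searched in RefSeq windows. Python 3.11.15, NumPy 2.4.6, pandas 2.3.3 and matplotlib 3.10.9 were used.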

Additional observations from a re-analysis of the deposited data

How the results depend on the processing

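Alternatives were pseudocounts of 0.1 and 5, no filter, at least 1 FPKM in every column, median centring, quantile normalization and a 2-fold minimum, and a ratio without pseudocount was added after the data had been seen. No paired analysis was possible because the table holds 1 value per condition, and for the same reason no library could be left out. Of 174 repeated counts and medians, 163 stayed within 1.5 times their value. All 38 members compared had at least 1 FPKM in every column, so the 24 repeats under that filter could not change. Of 912 repeated values of single members, 28 no longer passed the minimum, 22 of them at 2-fold, and 12 newly passed it. At 2-fold, 6 members were higher in CD24 KO, 3 were lower in RCC2 KO and 15 were lower in RCC2 KO than in CD24 KO. The efflux median reversed in CD24 KO without a filter, to -0.011, and was 0.14 with a pseudocount of 5. In RCC2 KO it was -0.20 without a filter, -0.053 with a pseudocount of 5 and -0.049 after quantile normalization, and between the knockouts it was -0.13 with a pseudocount of 5. Between the knockouts, 1 member, LBR, was higher in RCC2 KO with a pseudocount of 0.1 or none. With a pseudocount of 5, which weighs down low genes, 13 members were higher in CD24 KO (3.61% of all genes), 6 were lower in RCC2 KO (0.912%) and 21 were lower between the knockouts (5.26%). Quantile normalization gave 19, 9 and 27 members (10.3%, 2.95% and 12.9% of all genes). Over all genes, pseudocounts of 0.1 and 5 took the genes lower in RCC2 KO from 490 to 946 and 117, those higher in it from 186 to 381 and 67, and those higher in CD24 KO from 1225 to 1725 and 463. No member that passed 1.5-fold changed sign under these settings. The unknown depth limits ABCA1, ABCG1 and other low genes most.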

Other observations

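Of the 40 genes, 17 share their position in the table with at least 1 other gene, and for 10 of them a gene listed at the same position was compared, FADS1 and FADS2 with each other. The 12 such neighbors that are not members had median log2 changes against Scr of -0.18 under CD24 KO and -0.049 under RCC2 KO. In CD24 KO 1 was at least 1.5-fold higher and 1 lower, near the 9.55% and 11.6% of all genes. The higher one was SOD2, the mitochondrial superoxide dismutase, and the lower one TCP1, a chaperonin subunit, both named after their values were seen and both listed with ACAT2. SOD2 was at 134, 262 and 102 FPKM under Scr, CD24 KO and RCC2 KO, and TCP1 at 117, 66.2 and 120.2 FPKM. IDI2, the neighbor and paralog of IDI1, was at 6.35, 3.96 and 6.23 FPKM, with its lowest value in the column where IDI1 had its highest. VPS51, listed with TM7SF2, was at 16.8, 12.0 and 15.1 FPKM, and C18orf8, listed with NPC1, at 24.3, 25.1 and 21.1 FPKM. Apart from SOD2, none of the 12 neighbors passed 1.5-fold in the direction of its member.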
